A study of Mus musculus with 6 samples.

Results

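Serum response factor, SRF, is a transcription factor that binds a short element called the CArG box, and it controls many genes of the actin cytoskeleton. When monomeric actin is used up for filaments, the cofactors MRTFA and MRTFB are released from it, enter the nucleus and act with SRF, whereas ternary complex factors of the ETS family join SRF downstream of ERK signaling. In smooth muscle the cofactor myocardin drives the same factor to a contractile programme that includes Acta2, Tagln and Myl9. Described here are 10 genes of the mouse melanoma line B16F10, picked by symbol: Srf itself, the cytoplasmic actins Actb and Actg1, the smooth muscle actin Acta2, the transgelins Tagln and Tagln2, and Vcl, Myl9, Tpm1 and Flna. All 10 were found among the 27179 genes of the deposited table, each in 1 row.

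B16F10 is an established cell line from a melanoma of mouse skin, labelled wild type. Both groups were grown in medium with serum, and 3 cultures received 0.01% olive oil (OLO) and 3 received 0.01% ozonated olive oil (OZO), each for 6 h, before RNA was sequenced. The value analysed was 1 mean level per gene over all 6 libraries, OLO and OZO together, as log2 CPM, the read count scaled to the size of the library. The columns in which the deposited table compares OZO with OLO were not used here, so nothing below is a difference between the treatments. Because a mean over all libraries carries no spread, the levels are a description with no test, and the order of 2 genes of similar level is not established.

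The promoter sequences are shown first, because the CArG box is the element that SRF binds. Binding of SRF to these genes was not measured. A set of RefSeq start sites on GRCm38.p6 gave windows for 8 of the 10 genes. Each window ran from 250 bases before to 50 bases after the start. Actb and Tagln had no window in this set, so their promoters were not searched. A CArG box, a run of A or T between CC and GG that reads as a CArG box on either strand, was found in 4 of these 8 windows, those of Srf, Actg1, Vcl and Myl9. Of all 27025 genes with such a window, 488 (1.81%) held one. The 10 genes were picked as actin cytoskeleton genes controlled by SRF, so their share is no independent test of that control. The 4 stretches below lie before the start site and leave out annotated exons, run 5′ to 3′ on the strand of the gene, and have the CArG boxes in capitals.

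Srf, chr17:46556176-46556412, minus strand: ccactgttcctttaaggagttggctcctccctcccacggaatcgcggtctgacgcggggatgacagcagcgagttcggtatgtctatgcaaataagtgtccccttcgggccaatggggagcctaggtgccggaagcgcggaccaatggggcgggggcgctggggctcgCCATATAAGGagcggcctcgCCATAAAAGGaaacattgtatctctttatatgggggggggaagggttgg
Actg1, chr11:120348543-120348677, minus strand: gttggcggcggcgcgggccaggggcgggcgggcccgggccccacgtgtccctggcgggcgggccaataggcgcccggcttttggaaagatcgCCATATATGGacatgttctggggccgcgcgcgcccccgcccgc
Vcl, chr14:20929148-20929397, plus strand: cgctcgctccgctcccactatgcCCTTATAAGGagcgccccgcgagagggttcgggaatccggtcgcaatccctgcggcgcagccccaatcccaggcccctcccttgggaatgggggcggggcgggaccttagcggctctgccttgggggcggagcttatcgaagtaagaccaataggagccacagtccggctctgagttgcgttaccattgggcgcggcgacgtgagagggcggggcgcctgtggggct
Myl9, chr2:156775214-156775419, plus strand: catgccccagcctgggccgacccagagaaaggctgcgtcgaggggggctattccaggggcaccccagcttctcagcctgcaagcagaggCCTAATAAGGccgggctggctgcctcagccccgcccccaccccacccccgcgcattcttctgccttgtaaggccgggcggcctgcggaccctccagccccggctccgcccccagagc

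Srf was the only one of the 8 windows with 2 exact boxes, CCATATAAGG starting 82 bases and CCATAAAAGG starting 62 bases before the RefSeq start site. The box of Actg1, CCATATATGG, began 90 bases before the start, that of Myl9, CCTAATAAGG, 161 bases before it and that of Vcl, CCTTATAAGG, 227 bases before it. Over all windows the median box began 107 bases before the start, so the boxes of Srf and Actg1 lay nearer to the start than the median and those of Myl9 and Vcl farther away. The Srf window also held CCGGAA, the core that ETS factors bind, starting 122 bases before the start, ahead of both exact CArG boxes. None of the other 7 windows held CCGGAA on either strand, against 16.7% of all genes with a window and 32.8% of those with 1 CPM or more. GGGCGG, the GC box, was present on either strand in 7 of the 8 windows, the exception being Acta2, against 38.2% of all genes with a window and 70.2% of those with 1 CPM or more. TATAAA was found in 1 of the 8, on the opposite strand of Srf and inside a CArG box with 1 letter off, against 15.7% of all genes with a window and 8.34% of those with 1 CPM or more.

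With 1 letter off the CArG box allowed, 7 of the 8 windows held a match, but so did 23.8% of all 27025 genes. The windows added were those of Acta2, Tpm1 and Flna, and Tagln2 still had none. Acta2 held CCCTATATGG and CCTTGTTTGG, Tpm1 held CCATATATAG and CCAAAAAAGT, and Flna held CATTTAAAGG. For several of these genes the window depends on which start site is taken. The RefSeq start lay 217 bases inside the outermost GENCODE start for Acta2, 199 for Tagln2, 193 for Tpm1 and 3286 for Flna, whereas it lay 13 bases inside for Srf, 44 for Myl9, 47 for Actg1 and at the same base for Vcl. The windows of Acta2, Tagln2 and Tpm1 therefore cover mostly exon, and sequence before their GENCODE start was searched only over 33, 51 and 57 bases, and for Flna not at all.

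**Figure D1:**
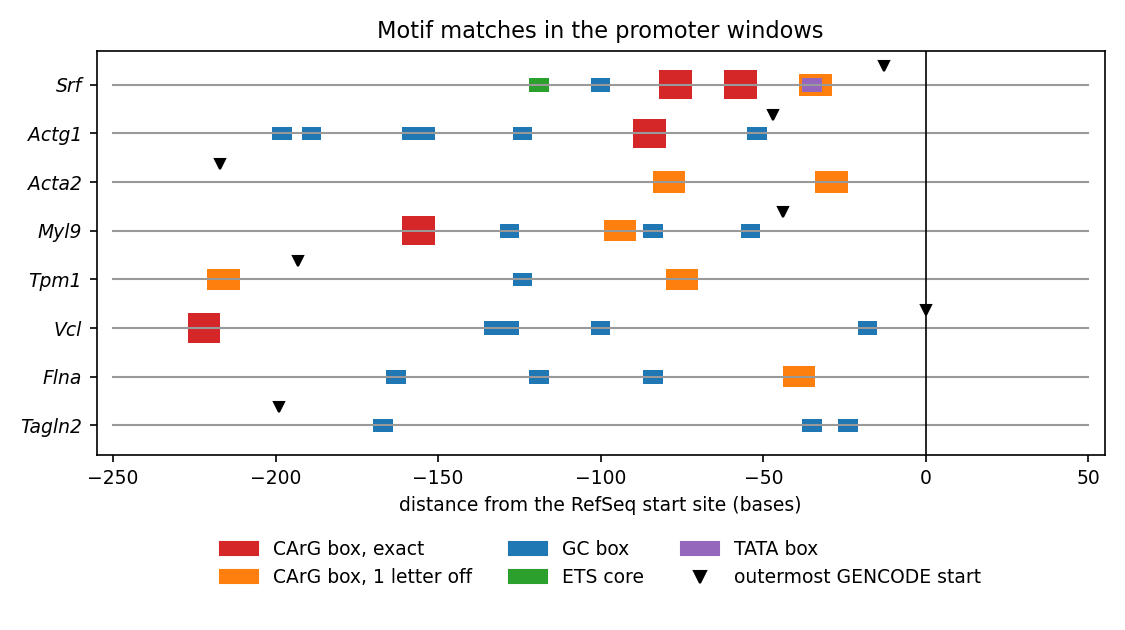
Motif matches for the 8 genes with a promoter window in the set used, by distance in bases from the RefSeq start site. A triangle marks the outermost GENCODE start where it falls in the window. Exact CArG boxes appear in Srf (a pair), Actg1, Myl9 and Vcl, and matches with 1 letter off in Srf, Myl9, Acta2, Tpm1 and Flna.

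The 10 genes spread over nearly the whole range of expression in these cells. On the scale of CPM per kb of the longest transcript, which allows genes of different length to be compared, they ran from 0.0196 for Acta2 to 427 for Actb, with a median of 15.95. The median of all 19227 genes with reads and an annotated length was 1.87, and 6 of the 10 genes lay above it. In order, the levels were highest for Actb, then Actg1, Tpm1, Flna, Vcl, Srf, Tagln, Myl9, Tagln2 and Acta2. Vcl and Srf were nearly level, with a ratio of 1.02. Srf stood 10.1-fold above Tagln, the next gene below it. The levels of Myl9, Tagln2 and Acta2, which follow Tagln, rest on a few reads and on the constant added before the logarithm, so no fold is given against them. In the plot of levels, Actb, Actg1, Tpm1 and Flna stood highest, then came Vcl and Srf with Tagln below them, and Myl9, Tagln2 and Acta2 stood apart at the bottom.

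**Figure D2:**
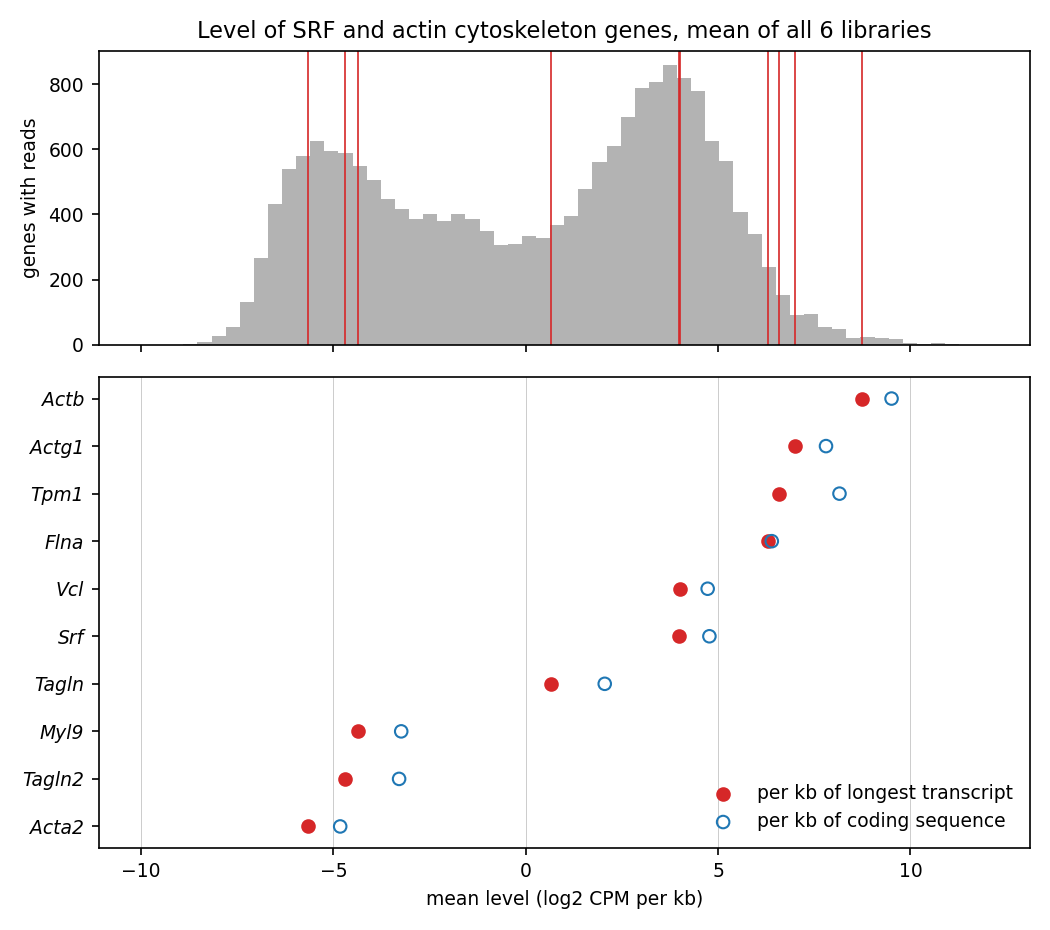
Mean level of the 10 genes over all 6 libraries in log2 CPM per kb, below a histogram of all 19227 genes with reads and an annotated length, in which red lines mark the same 10 genes. Filled points use the longest transcript and open points the coding sequence; Myl9, Tagln2 and Acta2 stand in the lower peak of the histogram and Actb in its upper tail.

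Srf (ENSMUSG00000015605, chr17:46548329-46556175, minus strand, 7 exons in its longest transcript) had a mean level of 5.37 on the log2 CPM scale, or 41.4 CPM and 15.8 CPM per kb. That placed it above 78.2% of genes with reads. About 812 reads per library stood behind this level as a geometric mean. Srf transcripts were thus measured well above the range in which single reads decide a value. Compared per kb, Srf stood 2.11-fold above the cofactor gene Mrtfa and 1.76-fold above Mrtfb, and per kb of coding sequence 2.40-fold and 1.20-fold.

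Of 6 SRF cofactor genes, 5 were at 1 CPM or more, as were 59.7% of all genes with reads and a length. Mrtfa, which senses monomeric actin, had a level of 7.51 CPM per kb and its paralog Mrtfb 9.002. Elk1 and Elk4, ternary complex factors that carry the ERK signal to SRF, had 11.1 and 11.7 CPM per kb, and Elk3 had 3.72. Myocd, which encodes myocardin, was the exception, at 0.00651 CPM per kb. Its mean corresponds to exactly 2 reads in 1 library and none in the other 5. The count of 5 of 6 rests on levels alone and says nothing about the activity of the proteins.

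The cytoplasmic actins form the bulk of the actin filaments in most cells. Actb (ENSMUSG00000029580, chr5:142903115-142906754, minus strand) encodes beta-actin and had a mean level of 9.68 on the log2 CPM scale, or 819 CPM and 427 CPM per kb. It stood above 99.6% of genes with reads. Actg1 (ENSMUSG00000062825, chr11:120345690-120348542, minus strand) encodes gamma-actin and had 251 CPM and 129 CPM per kb, above 98.2% of genes. Per kb, Actb was 3.31-fold above Actg1, and 3.26-fold per kb of coding sequence, so the choice of length hardly touched this ratio. Actb is often taken as a reference gene for expression, and among the 10 genes it had the highest level on each scale.

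The muscle actins were all under 1 CPM, and 2 of them were near the lowest measurable level. Acta2 (ENSMUSG00000035783, chr19:34241090-34255590, minus strand), which encodes smooth muscle alpha-actin, had a mean of -4.64 on the log2 CPM scale. From that mean, the number of Acta2 reads in all 6 libraries together was between 3 and 7, and at least 4 libraries had none. Actc1, the cardiac alpha-actin, had the same mean and so the same bounds. Acta1, the skeletal muscle alpha-actin, had 0.266 CPM and Actg2, the gamma-actin of smooth muscle of the gut, had 0.495 CPM. The cardiac and skeletal genes each hold an exact CArG box in the promoter window, and neither reached 1 CPM. Acta2 and Actg2 did not reach it either. In bulk RNA, fewer cells that express a gene and less RNA per cell cannot be told apart.

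The transgelins, small actin-binding proteins, also split. Tagln (ENSMUSG00000032085, chr9:45929619-45936058, minus strand), an early marker of smooth muscle, had 2.50 CPM, 1.57 CPM per kb and a geometric mean of 48.7 reads per library. Tagln2 (ENSMUSG00000026547, chr1:172500047-172507380, plus strand) had a mean of -4.04 on the log2 CPM scale, with 6 to 94 reads in all 6 libraries together and none in at least 2 of them. Tagln3, the form of nerve cells, stood near Tagln with 1.11 CPM per kb.

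Myl9 and Tpm1, genes of contraction and filament structure, lay far apart. Myl9 (ENSMUSG00000067818, chr2:156775420-156781658, plus strand) encodes a regulatory light chain of smooth muscle and nonmuscle myosin, and its mean was -4.19 on the log2 CPM scale. That mean stands for 7 to 49 reads in all 6 libraries, with none in at least 3. Myl12a and Myl12b, which encode closely related regulatory light chains, had 36.6 and 32.1 CPM per kb, both above the level of Vcl. Tpm1 (ENSMUSG00000032366, chr9:67022590-67049406, minus strand), a tropomyosin that winds along the filament, had 279 CPM and 96.4 CPM per kb, above 97.4% of genes. It has 21 annotated transcripts of 649 to 2890 bases, which 1 level per gene cannot tell apart. Among the other tropomyosins, Tpm3 had 201 CPM per kb and Tpm4 had 118, though by CPM Tpm4 (251.9) was below Tpm1, while Tpm2, the form rich in muscle, had 4 to 22 reads in all 6 libraries.

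The cross-linker and the adhesion protein were both well expressed. Flna (ENSMUSG00000031328, chrX:74223461-74249820, minus strand) encodes filamin A, which joins actin filaments into networks and ties them to membrane receptors. It had 668 CPM, but over 8456 bases of transcript this came to 79.0 CPM per kb, so that Flna, next to Actb by CPM, lay below Actb, Actg1 and Tpm1 by CPM per kb. Flnc, the filamin of muscle, had 0.0603 CPM per kb. Vcl (ENSMUSG00000021823, chr14:20929398-21033676, plus strand) encodes vinculin, which couples integrin adhesions to actin. It had 84.8 CPM, 16.1 CPM per kb and a place above 78.5% of genes.

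Wider lists set these levels beside related genes. Of 21 other actin filament proteins, 19 were at 1 CPM or more and 17 above the median of all genes by level per kb, with a median of 52.3 CPM per kb. Cfl1, the filament-severing protein cofilin, had the highest level at 274 CPM per kb, and Csrp1, Pfn1 and Actn4 had 197, 69.2 and 73.7. Of 12 focal adhesion and adhesion-linked genes, 10 were at 1 CPM or more, with a median of 15.2 CPM per kb. Itgb1, the beta1 integrin, led them at 257 CPM per kb, and Zyx and Tln1 had 18.6 and 34.0. Among all genes with reads and a length, 59.7% were at 1 CPM or more. CArG boxes were found in 2 of 20 filament genes with a window, Myl6 and Cnn2, and in 2 of 9 focal adhesion genes, Lima1 and Fhl2, against 1.81% of all genes with a window and 1.504% of those with 1 CPM or more.

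The labelled cell type was seen in its markers. All 7 melanocyte markers (Tyr, Tyrp1, Dct, Pmel, Mlana, Mitf and Sox10) were above the median of all genes, from 39.0 CPM per kb for Sox10 to 2144 for Tyrp1. Of 6 smooth muscle markers, 2 were at 1 CPM or more, Smtn with 7.74 and Des with 1.24 CPM per kb, while Myh11 and Cnn1 had 0.132 and 0.0559. Keratinocyte markers were at or next to zero, with no read for Krt5 in any library. Of 7 fibroblast, 4 endothelial and 4 leukocyte markers, 4, 1 and 1 reached 1 CPM, and Cd68 was the highest of these at 4.45 CPM per kb. The summed level was 6372 CPM per kb for the melanocyte list and 9.27 for the smooth muscle list.

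**Figure D3:**
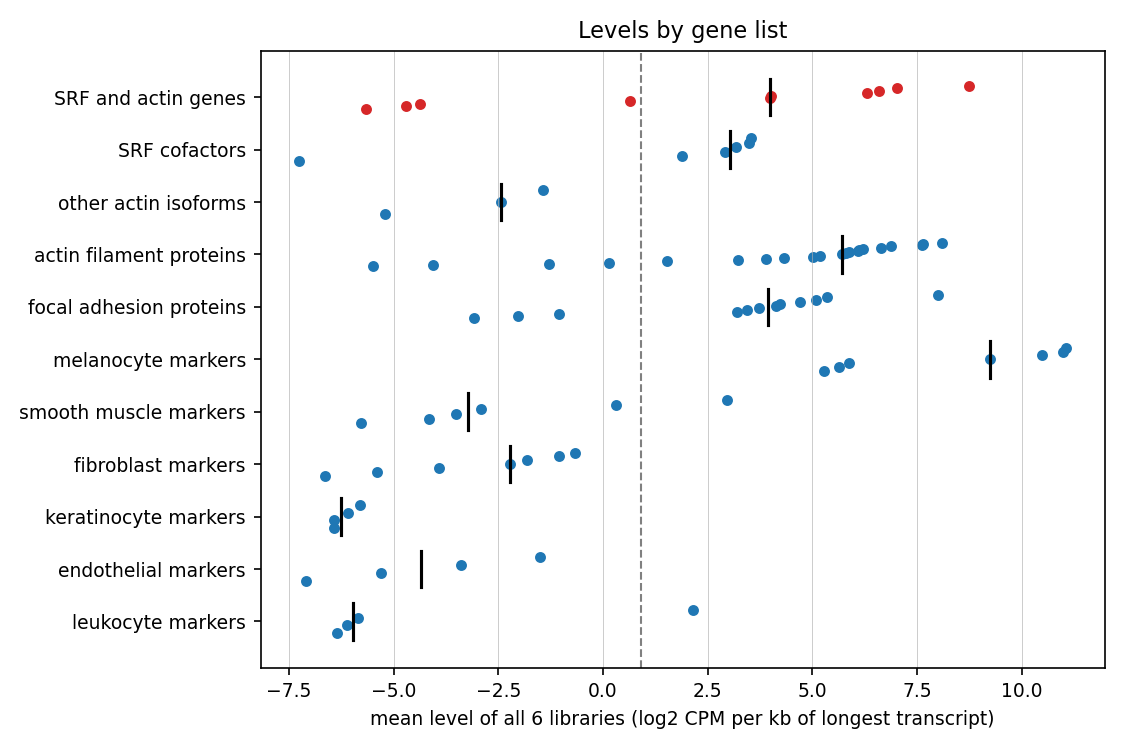
Mean level over all 6 libraries in log2 CPM per kb of the longest transcript for each gene of each list, 1 point per gene, with a black bar at the median of the list and a dashed line at the median of all genes with reads. Melanocyte markers stand to the right of the line, SRF and actin genes on both sides, and muscle actins, keratinocyte and endothelial markers to the left.

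Some of these genes share sequence with other genes, which touches how surely their reads can be assigned. Over the coding sequence, Actb and Actg1 were identical at 997 of 1125 bases (88.6%), with an identical run of up to 62 bases. Acta2 was 82.8% identical to Actb and 81.5% to Actg1, and Tagln and Tagln2 shared 69.3%. Cut into words of 50 bases, 56.7% of the longest Actg1 transcript also occurs in other annotated genes in the same orientation, 12 of these 22 genes being pseudogenes. Processed pseudogene Gm12715 alone holds 51.1% of it. For Actb the share was 14.2%, of which Lrrc58 accounts for 9.57% of the transcript and Actg1 itself for 30 of 1871 words. Reads from such stretches can fall to either gene or be set aside as ambiguous, so the levels of Actg1 and, to a smaller extent, Actb are uncertain, and so is the ratio between them. According to the methods the reads were longer than these words, so whole reads can be shared less often than words. How often whole reads are shared was not tested.

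In opposite orientation the overlap concerned Tagln and Vcl. Tagln shares 48.3% of its 50-base words with genes on the other strand, Gm48529 (44.5%) and Pcsk7 (3.82%), and Vcl shares 39.2% with Ap3m1. The libraries were made with a directional kit, but the strand setting of the counting is not given in the sources used here. Without it, reads from the overlapping stretches of Tagln and Vcl cannot be told apart from those of their partners. Pcsk7 had a level of 34.1 CPM and Ap3m1 of 154 CPM, against 2.50 CPM for Tagln and 84.8 CPM for Vcl. The part of Pcsk7, Gm48529 and Ap3m1 in these levels was not tested. Srf, Myl9, Tpm1 and Flna shared no 50-base word with another gene, and Acta2 and Tagln2 less than 1% in either orientation.

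**Figure D4:**
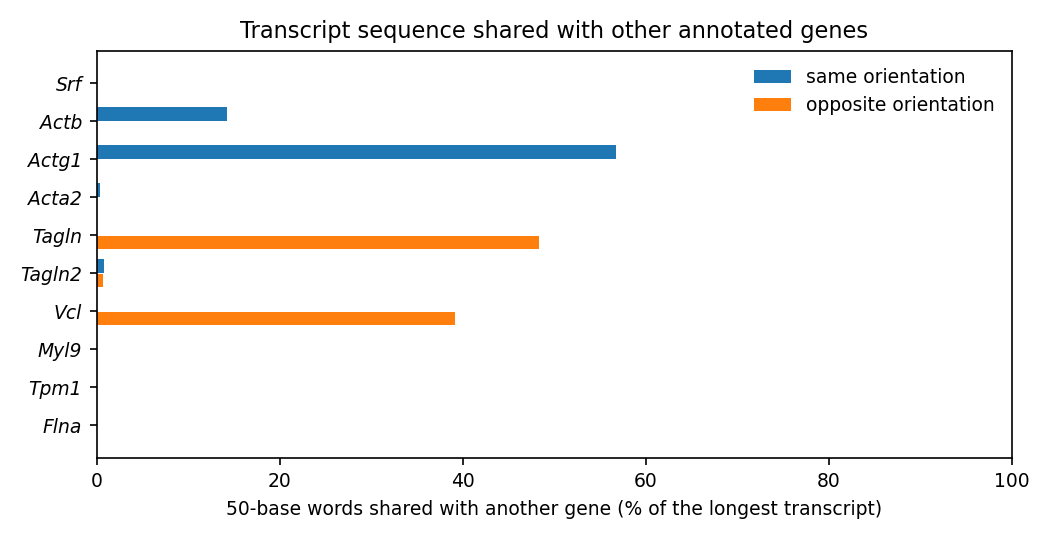
Share of the 50-base words of each gene's longest transcript, in percent, that also occur in another annotated gene, in the same (blue) or the opposite (orange) orientation. Actg1 and Actb stand out in the same orientation and Tagln and Vcl in the opposite one, while Srf, Myl9, Tpm1 and Flna have none.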

How the data were processed

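RNA of 3 OLO-treated and 3 OZO-treated B16F10 cultures was sequenced from directional libraries. According to the methods and labels, the authors aligned reads to mm10 with HISAT2 (2.1.0), counted them with featureCounts (2.1.1) and ran limma-voom (3.58.1). StringTie (1.3.4d) values were not used here. The deposited log2 value analysed is the authors' mean log2 CPM over all libraries, to each count of which voom adds 0.5 reads. The other columns hold the authors' own comparison of OZO with OLO (fold change, moderated statistic, p-values and log odds) and were not used, so the count and normalized-value tests planned for the treatments were not run.

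Genes without reads (6025 of 27179) share the lowest mean, from which 1 CPM corresponds to a geometric mean of 19.6 reads per library. Depths of single libraries are unknown. For very low genes, that mean fixes the product over libraries of 2 times the reads plus 1, which came out whole within 0.01 and was factored over the 6 libraries to bound the reads. Transcript and coding lengths came from GENCODE M21 (GRCm38), which held 23882 of 24126 Ensembl identifiers. Promoter windows came from RefSeq on GRCm38.p6, matched by Entrez identifier. The CArG box was searched on both strands, as were the GC box, ETS core and TATA box, which were chosen with the sequences at hand. Coding sequences were aligned globally with Biopython 1.88, and words of 50 bases were compared with all GENCODE transcripts. All 10 genes were named, and other genes only from lists of cofactors, actins, filament, adhesion and marker genes, beside genes that share sequence with a member, named after their values were seen. Members and lists were chosen with earlier results of these data known. The recovery of the library size was tested on simulated counts, with genes at the lowest mean set to no reads. The CArG search was tested on boxes planted in simulated sequences of only C and G, unlike real promoters. Python 3.11.15, numpy 2.4.6, pandas 2.3.3 and scipy 1.17.1 were used.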

Additional observations from a re-analysis of the deposited data

How the results depend on the processing

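No paired analysis was possible because the value analysed is 1 mean per gene over all libraries, so the planned tests of the treatments, the replicate block, other normalizations, filters and pseudocounts, and leaving out each culture were not run either. The number of genes above the median of all genes by level per kb was 6, and 6 with the coding length, 6 among genes of 1 CPM or more and 7 with genes without reads ranked too. With 1 letter off allowed, genes with a CArG box went from 4 to 7 of 8, and the share of all genes from 1.81% to 23.8%, by construction of the looser search. Among genes of 1 CPM or more that share was 1.504%. Percentiles of single genes moved most for Tagln, from 48.7 to 14.6 among genes of 1 CPM or more. Srf moved from 78.2 to 63.4 among these genes and to 70.7 by coding length. Vcl moved from 78.5 to 63.9 and 70.2 in the same settings. By coding length Flna moved from 96.6 to 88.1, and Actg1 and Tpm1 changed places in the order, as did Srf and Vcl.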

Other observations

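Levels were also set out across the whole table by the presence of a CArG box in the promoter window. Of 328 genes with a window and an exact box, 141 (43.0%) were at 1 CPM or more, against 9232 of 18130 genes (50.9%) without a box. The median level over all these genes with a length was 0.133 CPM per kb with a box and 0.536 without. These 2 medians include genes without reads, whose level rests only on the added constant and the length. Among genes of 1 CPM or more, the median level was 10.7 CPM per kb with a box and 9.98 without. The quartiles of the latter genes overlapped broadly, from 1.90 to 4.54 with a box and from 1.81 to 4.59 without on the log2 CPM per kb scale. These are descriptions over genes, which are not replicates, and no test was made. Of 541 exact boxes over all windows, 47.9% began within 100 bases before the start or after it.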
